A study of Homo sapiens with 4 samples.

Results

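The genes described here carry the cyclic AMP (cAMP) signal from a receptor at the cell surface to transcription, together with the phosphodiesterases that end it. They were chosen by gene name: every adenylyl cyclase (ADCY), every phosphodiesterase named by a number and a letter (PDE), every subunit of protein kinase A (PKA; PRKAR and PRKAC), the receptors VIPR1, VIPR2 and ADCYAP1R1, the G protein gene GNAS, and the transcription factors CREB1 and CREM. The array held 47 such genes among 36337 gene names, and they were read by 70 probes. VIPR2 was among the largest increases in these data, and that increase is why the set was assembled, so its values are given below as a description with no test.

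In this pathway a ligand such as vasoactive intestinal peptide (VIP) or PACAP binds a receptor, the receptor activates the stimulatory G protein encoded by GNAS, and the G protein switches on adenylyl cyclases that make cAMP from ATP. cAMP frees the catalytic subunits of PKA from the regulatory subunits that hold them inactive, and PKA phosphorylates CREB family factors among many other proteins. Phosphodiesterases hydrolyse cAMP, cGMP or both, and so set how far and how long the signal lasts. In the gut wall, VIP is a neuropeptide of inhibitory nerves that relaxes smooth muscle through this route.

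All samples were GIST-T1 cells, an established line from a human gastrointestinal stromal tumor, grown in culture and transfected by electroporation. The cells (3000000 per transfection) received 100 pmol of either an RNA duplex made to mimic mature miR-34a or a negative control mimic. RNA was taken 48 h later and read on one-color Agilent arrays, 2 for the mimic and 2 for the control. The labels give no other difference between the groups, and all cells came from 1 line at 1 time, with no untransfected cells analysed here. Signals are relative to the RNA of the whole culture, so fewer cells that express a gene and less of its RNA per cell cannot be told apart. The labels do not say whether replicates were separate cultures, and the spread between them may therefore be technical.

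The mimic carries the sequence of miR-34a-5p, shown because the seed, bases 2 to 8, is the stretch through which a microRNA recognises its targets. The RefSeq record places it on the minus strand of chr1:9151735-9151756 (GRCh38.p14), and the capitals mark the seed.
hsa-miR-34a-5p: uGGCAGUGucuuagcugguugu
The complement of the seed, CACTGCC, was present in 0.435% of the 50599 probes on the array and in 0 of the 70 probes for the cAMP genes. The 6-base stretch ACTGCC was also in 0 of these 70 probes, against 1.302% of all probes, with the probes searched on the strand printed in the array files. For 70 probes, a count of 0 is close to these shares. Only the 60 bases of each probe were searched, so the counts do not show whether the transcripts carry the seed match.

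Values are log2 processed signals minus the 75th percentile of the array, so a value of 0 is the signal that 75% of its probes lie below. Between 41.8% and 45.2% of probes were well above background on an array, and the lowest signals so called lay between -3.30 and -3.20. A probe was tested when both arrays of at least 1 group were well above background, which left 21474 probes of 16192 genes, and a gene was represented by its brightest tested probe. The 6 GIST markers examined (KIT, ANO1, ETV1, PRKCQ, GPR20 and BARX1) were detected on all 4 arrays. All 6 had log2 differences below 0 with the mimic, as did 8309 of the 16192 tested genes. These differences ran from -0.70 to -0.06, with a median of -0.18. Both mimic arrays lay below both control arrays for 5 of the 6 markers, and for 30.6% of all tested genes. KIT, the receptor tyrosine kinase that marks these tumors, read 6.74 and 6.79 with the mimic and 7.46 on both control arrays, a log2 difference of -0.70. Of 3 markers of other cell types, PECAM1 and PTPRC had no probe that could be tested. EPCAM, an epithelial adhesion molecule, gave -2.02 and -1.69 with the mimic and -2.27 on both control arrays, and the part of these markers in the results below was not tested.

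Of the 47 cAMP genes, 33 had a tested probe. No probe was tested for ADCY2, ADCY5, ADCY7, ADCY8, ADCY10, PDE1B, PDE4B, PDE6A, PDE6B, PDE6C, PDE7A, PDE11A, PRKACG or VIPR1, and 11 of these 14 genes were detected on none of the arrays. ADCY10, ADCY5 and PDE6C were each detected on a single array. The tested set therefore held 5 of 10 cyclases, 17 of 24 phosphodiesterases and 6 of 7 PKA subunits, together with GNAS, CREB1 and CREM.

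With the mimic, 3 of the 33 genes were higher by more than 1.5-fold (VIPR2, PDE6H and ADCY1), where 1.95% of all tested genes were. In the other direction, 1 gene was lower by more than 1.5-fold (PDE4C), where 4.83% of all tested genes were. VIPR2 is counted here although it prompted the choice of the set, and without it 2 of 32 genes were higher by more than 1.5-fold. ADCY1 is counted although it entered the tested probes only through the mimic group, where it is higher. The count of higher genes is therefore not a measure of an excess over all tested genes. Both mimic arrays lay above both control arrays for 13 of the 33 genes and below them for 15, and the groups overlapped for 5. VIPR2 and ADCY1 are among those above, and ADCYAP1R1, which was tested only through the control group, is among those below. Among all tested genes the corresponding shares were 31.2% above and 30.6% below. The median log2 difference was -0.12 for the 33 genes and -0.01 for all tested genes.

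No probe in the whole table passed an adjusted p of 0.05 in limma (0% of 21474 probes, with 5222 at an unadjusted p under 0.05), and the smallest adjusted p was 0.0948. For the 44 tested cAMP probes other than those of VIPR2, the limma adjusted p ran from 0.0948 to 0.966. When limma let the variance follow the signal level, 3.81% of all probes passed as higher and 3.6% as lower. Of these 44 probes, 1 then passed as higher, for ADCY9, and 4 passed as lower, for GNAS, PDE4C, PDE2A and PDE5A. The smallest p that an exact permutation test can give with 2 arrays against 2 is 0.333, so no single gene could be tested that way.

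**Figure D1:**
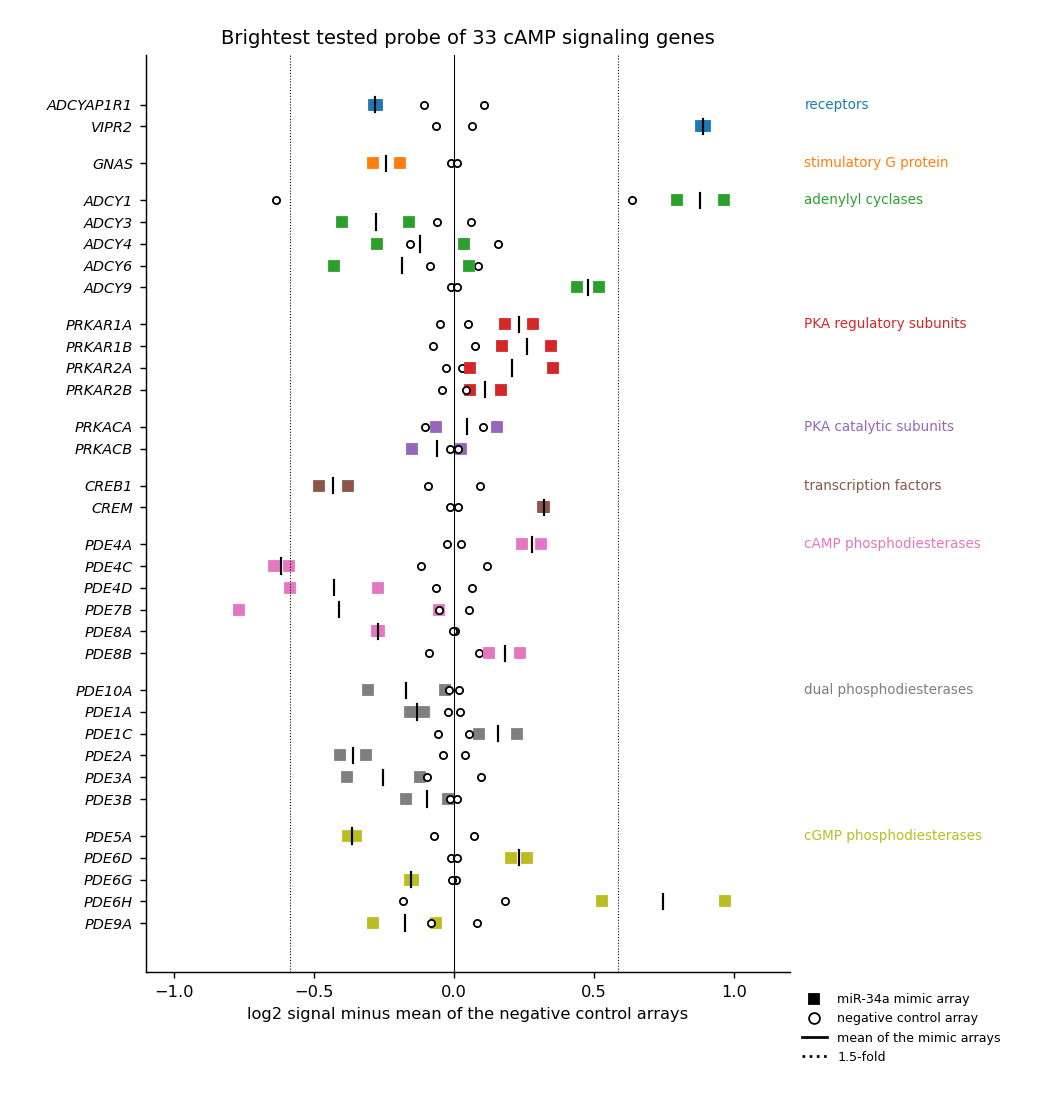
Log2 signal of each array minus the mean of the negative control arrays (horizontal axis), for the brightest tested probe of 33 cAMP signaling genes grouped by role. Squares are the 2 miR-34a mimic arrays, open circles the 2 control arrays, vertical bars the mimic means and dotted lines a 1.5-fold difference. VIPR2, ADCY1 and PDE6H have means beyond the right line and PDE4C beyond the left, and 1 control value of ADCY1 lies far from the other.

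VIPR2, the VPAC2 receptor for VIP and PACAP, was read by 2 probes on the minus strand of chromosome 7 (hg19 coordinates in the array annotation). The first, A_23_P145978, starts at base 1021 of the transcript NM_003382. Its 60 bases map across a splice junction at chr7:158826980-158827315, so it reads spliced receptor message. It is shown because the VIPR2 result rests on it and on 1 other probe.
VIPR2 probe A_23_P145978: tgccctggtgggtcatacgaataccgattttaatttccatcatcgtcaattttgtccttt
The second, A_32_P153071 at chr7:158821214-158821273, starts at base 3536 of the same transcript and is called the 3′ probe below.

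The junction probe read -0.20 and -0.21 on the mimic arrays and -1.03 and -1.16 on the control arrays. Its log2 difference was 0.89 (SE 0.07), or 1.85-fold. The 3′ probe read -0.39 and -0.46 with the mimic and -1.78 and -1.81 with the control, a log2 difference of 1.37 (SE 0.06), or 2.59-fold. Both were detected well above background on the 4 arrays. The groups did not overlap on either probe, but VIPR2 was chosen for its increase, so this separation is not a test of it. The increases ranked 26 (3′ probe) and 119 (junction probe) among the 21474 tested probes. With normexp background correction in place of the Agilent processed signal, the log2 differences were 0.73 and 0.53, the second of which is under 1.5-fold.

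The array also read the other receptors for these peptides. VIPR1, the VPAC1 receptor, was detected on no array, with values of -5.23 and -5.18 for the mimic and -5.22 and -5.15 for the control. ADCYAP1R1, the PACAP-preferring receptor, was well above background on the control arrays alone, at -2.41 and -2.62. Its mimic values were -2.79 and -2.80, a log2 difference of -0.28, or 1.21-fold lower, between signals close to background. It entered the tested probes only through the control group, where it is higher, so no test is given. The genes of the ligands, VIP and ADCYAP1, had no tested probe. VIPR2 was therefore the only VIP or PACAP receptor with a probe detected on all 4 arrays.

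**Figure D2:**
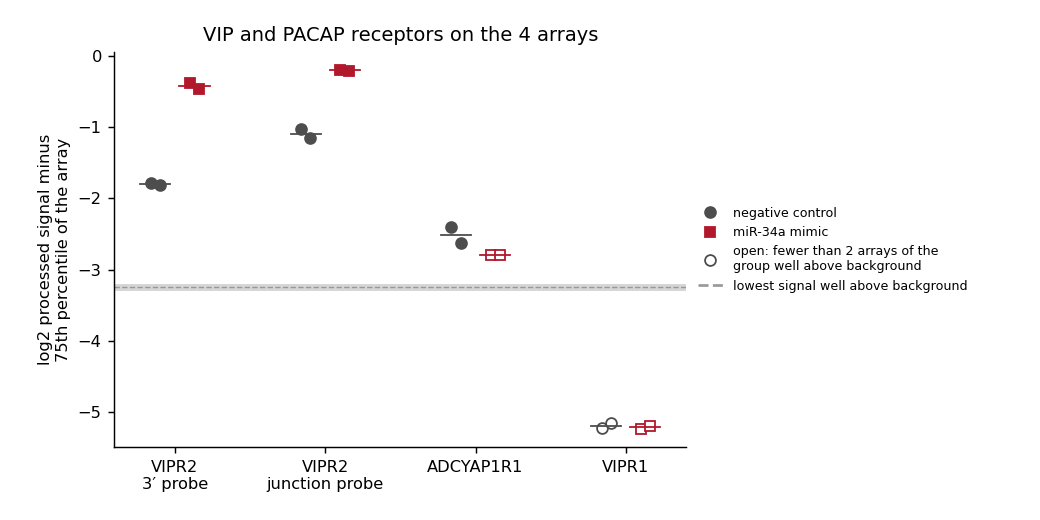
Log2 processed signal minus the 75th percentile of the array (vertical axis) for the VIP and PACAP receptor probes, with control arrays as circles, mimic arrays as squares and bars at group means. The grey band holds the lowest signals well above background, from -3.30 to -3.20. The mimic values of both VIPR2 probes lie above the control values, and VIPR1 lies below the band on all 4 arrays.

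Genes beside VIPR2 were examined within 1 Mb. The 4 that were tested had a median log2 difference of 0.06. NCAPG2, a condensin subunit, differed by -0.08. ESYT2, which tethers the endoplasmic reticulum to the plasma membrane, differed by -0.13. WDR60, a cytoplasmic dynein component of cilia, differed by 0.21. None of these 3 named neighbours was changed by more than 1.5-fold. The remaining neighbour, a transcript listed only by a sequence identifier, differed by 0.67, or 1.59-fold higher, which is past 1.5-fold. Its mimic values of -1.80 and -0.65 and control values of -2.13 and -1.65 overlapped.

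GNAS encodes the stimulatory G protein alpha subunit, and its locus on chromosome 20 also makes the proteins XLαs and NESP55 from other first exons. The array carried 5 GNAS probes. The probe A_24_P273666 at chr20:57486004-57486063 (hg19) read 9.02 and 9.11 with the mimic and 9.30 and 9.32 with the control, a log2 difference of -0.24 (SE 0.06; limma adjusted p = 0.153). The probe A_24_P418809, across a junction at chr20:57485083-57485394, read 8.04 and 7.84 against 8.20 and 8.22, a difference of -0.27 (SE 0.09; limma adjusted p = 0.199). On both of these probes, which the annotation assigns to RefSeq transcripts, the mimic arrays were below the control arrays by less than 1.5-fold.

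The remaining detected GNAS probe gave a larger difference. This probe, A_24_P168574 at chr20:57475008-57475067, to which the annotation assigns 4 Ensembl transcripts and no RefSeq transcript, read 0.25 and 0.49 with the mimic and 1.31 and 1.35 with the control. The log2 difference was -0.96 (SE 0.10), or 1.94-fold lower. The limma adjusted p was 0.0948 in the fit with a constant prior variance, 0.0141 with the variance trend and between 0.0141 and 0.357 over the alternatives. The difference between this probe and the other GNAS probes was not tested. The probes nearest the 5′ end of the locus, A_24_P168581 and A_24_P53595, had a signal well above background on 0 of the 4 arrays.

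**Figure D3:**
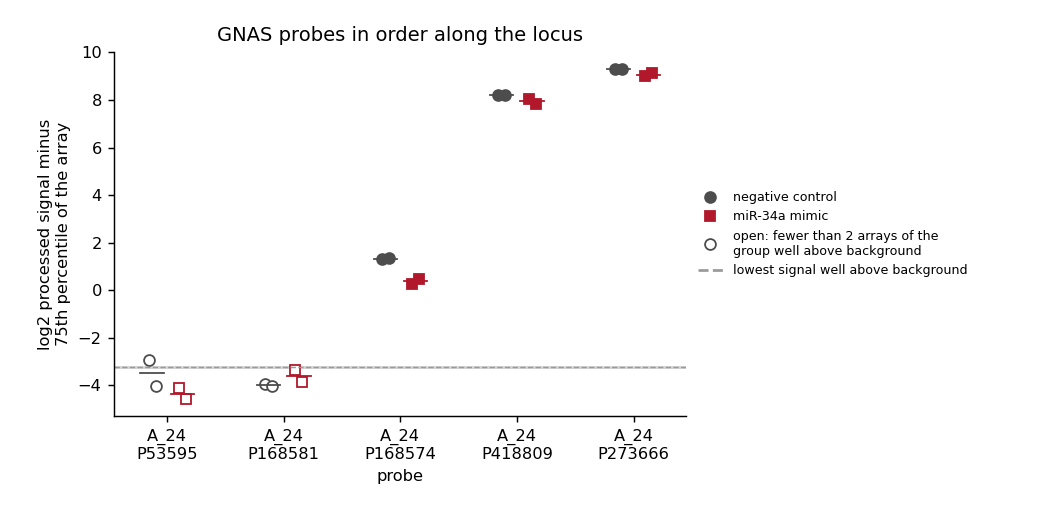
Log2 processed signal minus the 75th percentile of the array (vertical axis) for the 5 GNAS probes, ordered along the locus, with control arrays as circles, mimic arrays as squares and bars at group means. The middle probe has mimic values of 0.25 and 0.49 below control values of 1.31 and 1.35. Levels of different probes are not comparable with each other.

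Of the adenylyl cyclases, ADCY9, a widely expressed form that responds weakly to forskolin, was higher on both mimic arrays. It read 1.61 and 1.69 with the mimic and 1.16 and 1.18 with the control. The log2 difference was 0.48 (SE 0.06), under 1.5-fold, with a limma adjusted p of 0.0954 that became 0.0193 with the variance trend (0.0193 to 0.357 over the alternatives). ADCY3, the cyclase of olfactory neurons and of primary cilia, was lower on both mimic arrays by a log2 difference of -0.28 (SE 0.11; limma adjusted p = 0.248). ADCY4 and ADCY6 differed by -0.12 and -0.19 and overlapped between groups.

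ADCY1, a calcium-stimulated cyclase best known from neurons, was past 1.5-fold on uneven replicates. It read -1.67 and -1.84 with the mimic and -3.27 and -2.00 with the control, and only 1 of the control arrays was well above background. The log2 difference was 0.88 (SE 0.48). ADCY1 entered the tested probes only through the mimic group, so no test is given, and it leaves the count of genes past 1.5-fold when only probes detected on all 4 arrays are used. Without control replicate 1, the array on which it was not detected, the difference was 0.24. With normexp background correction it was 0.27.

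The PKA regulatory subunits had log2 differences above 0 on their brightest probes, as did 7883 of the 16192 tested genes. None passed an adjusted p of 0.05 in limma, where 0% of all tested probes did. The differences were 0.23 for PRKAR1A, 0.26 for PRKAR1B, 0.21 for PRKAR2A and 0.11 for PRKAR2B, with both mimic arrays above both control arrays in 4 of 4, as in 31.2% of all tested genes. None was as large as 1.5-fold, and limma adjusted p values ran from 0.190 to 0.406. Their median of 0.22 stayed between 0.15 and 0.32 under the alternatives. Other probes of these genes did not all follow: PRKAR1B had further probes at 0.43 and -0.04, and PRKAR2B had one at -0.01. The catalytic subunits PRKACA (0.05) and PRKACB (-0.06 on the brightest probe, 0.09 on another) overlapped on their brightest probes.

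Of 17 tested phosphodiesterase genes, 12 had log2 differences below 0, as did 8309 of the 16192 tested genes. None passed an adjusted p of 0.05 in limma with a constant prior variance, where 0% of all tested probes did. The mimic arrays were both below the control arrays for 11 (30.6% of all tested genes were), both above for 5 (31.2% of all tested genes), and overlapping for 1. The median log2 difference was -0.17, against -0.01 for all tested genes, and stayed between -0.27 and -0.12 under the scaling, background, probe-choice and leave-one-out alternatives. The counts below and above 0 were 12 and 5 in each of those settings.

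Among the enzymes specific for cAMP, PDE4C had the largest difference of a brightest probe. It read 0.02 and -0.03 with the mimic and 0.73 and 0.49 with the control. The log2 difference was -0.62 (SE 0.10), or 1.53-fold lower (limma adjusted p = 0.106, and 0.0349 with the variance trend, the lowest of alternatives that reached 0.357). Without control replicate 1 it was -0.50, under 1.5-fold.

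PDE4C belongs to the rolipram-sensitive PDE4 family, whose other tested members did not share a direction on their brightest probes. On these probes PDE4D differed by -0.43 (SE 0.14) and PDE4A by 0.28 (SE 0.06). A further tested probe gave -0.17 for PDE4D and -0.02 for PDE4A, and the groups overlapped on both. PDE8A and PDE8B, high-affinity enzymes that rolipram does not inhibit, also differed in sign, at -0.27 and 0.18. PDE7B differed by -0.41, and the SD of its mimic values of -0.99 and -1.70 was 0.50, larger than the difference.

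The enzymes that hydrolyse both nucleotides had both mimic arrays below both control arrays for 5 of 6 genes, where 30.6% of all tested genes did. PDE2A, which cGMP stimulates, read 3.09 and 3.18 with the mimic and 3.46 and 3.54 with the control, a log2 difference of -0.36 (SE 0.07). Its limma adjusted p was 0.116, and it lay between 0.0279, with the variance trend, and 0.371 over the alternatives. PDE3A and PDE3B, the cGMP-inhibited pair, differed by -0.25 and -0.10, PDE10A by -0.17 and the calmodulin-dependent PDE1A by -0.13. PDE1C was the exception at 0.16.

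The 5 tested genes grouped as specific for cGMP went both ways, but not all of them encode an enzyme. Above 0 were PDE6H and PDE6D, neither of which is a catalytic subunit, and the other 3 were below 0. PDE5A, the target of sildenafil and abundant in smooth muscle, read 1.41 and 1.44 with the mimic and 1.86 and 1.71 with the control. The log2 difference was -0.36 (SE 0.07; limma adjusted p = 0.125, with a range of 0.0438, under the variance trend, to 0.357 over the alternatives). PDE6H, the inhibitory subunit of the cone photoreceptor enzyme, read -1.58 and -1.15 against -1.93 and -2.29. Its log2 difference of 0.75 (SE 0.22) had a limma adjusted p of 0.174, and was 0.53 without mimic replicate 2 and 0.56 without control replicate 2, both under 1.5-fold. With normexp background correction it was 0.26. The catalytic photoreceptor subunits PDE6A, PDE6B and PDE6C had no tested probe. PDE6D, a carrier of prenylated proteins that is not restricted to photoreceptors, was 0.23 higher, PDE6G differed by -0.15, and PDE9A differed by -0.18 with overlap.

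At the end of the route, the transcription factors differed in sign. CREB1, which PKA phosphorylates, read -0.10 and 0.00 with the mimic and 0.47 and 0.29 with the control, a log2 difference of -0.43 (SE 0.09; limma adjusted p = 0.130). CREM, whose gene also makes the inducible repressor ICER, read 0.75 and 0.76 against 0.42 and 0.45. Its log2 difference was 0.32 (SE 0.05; limma adjusted p = 0.104), and a second CREM probe gave 0.25. The groups did not overlap for either gene, where 31.2% of all tested genes had both mimic arrays above and 30.6% had both below. Neither difference reached 1.5-fold.

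CREB family factors bind the cAMP response element, TGACGTCA, which reads the same on both strands. In RefSeq promoter windows of 250 bases before and 50 after a transcription start, 39 of the 47 genes were matched through 113 windows, since the promoter table used here held no entry under the other symbols. The element was in windows of 4 of these genes (10.3%), against 2.25% of the 27305 genes with a window. The cAMP genes had more windows per gene (113 for 39) than all genes (35116 for 27305), which gave more sequence to search per gene. By window the shares were 5.31% and 1.85%. The same element of CREM, and likewise that of PRKAR1A, was counted in overlapping windows. The difference in shares was not tested. The sequences are shown because they place this element in genes of the set, 30 bases each on the plus strand of GRCh38.p14 with the element in capitals. They are CREM at chr10:35195841-35195870, PRKAR1A at chr17:68512370-68512399, PDE4A at chr19:10416759-10416788 and PDE7B at chr6:135851535-135851564.
CREM: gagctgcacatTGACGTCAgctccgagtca
PRKAR1A: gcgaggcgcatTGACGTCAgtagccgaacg
PDE4A: cgtcagtccgcTGACGTCAcgccccaggag
PDE7B: actaaacccttTGACGTCActcttgaaatg
On their brightest probes the first 3 of these genes had log2 differences of 0.32, 0.23 and 0.28 with the mimic, and PDE7B had -0.41. A further PDE4A probe gave -0.02. A match is a description of letters in a window and not a measurement of binding.

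Further genes of the pathway were taken from 7 lists of receptors, regulators, sensors and targets, which with the ligands held 114 genes. Of these, 65 were tested, 1 was higher by more than 1.5-fold (1.95% of all tested genes were) and 4 were lower (4.83% of all tested genes). The groups did not overlap for 14 genes with the mimic above and 25 with it below, where the shares of all tested genes were 31.2% and 30.6%, and the median log2 difference was -0.05. None of the lists had a median beyond 0.19 in size.

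Among 10 tested receptors that couple to the stimulatory G protein, PTGER4 was higher by more than 1.5-fold and CRHR1 was lower. PTGER4, the EP4 prostaglandin E2 receptor, read -0.98 and -0.79 with the mimic and -1.38 and -1.62 with the control, a log2 difference of 0.62 (SE 0.13; limma adjusted p = 0.126). CRHR1, the corticotropin-releasing hormone receptor, differed by -0.86 but its groups overlapped, with control values of -2.31 and -0.98.

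The 13 tested genes listed for inhibitory G proteins and desensitization also held GNAL, a stimulatory alpha subunit, which differed by 0.19. Among the 13, GNAZ, a pertussis toxin-resistant inhibitory alpha subunit, was past 1.5-fold. It read -0.70 and -0.95 with the mimic and -0.51 and 0.16 with the control, a log2 difference of -0.65 (SE 0.27; limma adjusted p = 0.258). The 14 PKA inhibitors and anchoring proteins had a median of 0.10, with none past 1.5-fold, and the 7 tested cAMP sensors, EPAC among them, had a median of -0.11.

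Of 11 tested genes that are often induced through CREB, 2 were lower by more than 1.5-fold and none was higher, where 4.83% and 1.95% of all tested genes were. EGR1, a zinc finger factor, read 4.18 and 4.32 with the mimic and 5.04 and 4.96 with the control, a log2 difference of -0.75 (SE 0.08; limma adjusted p = 0.0948). JUNB, an AP-1 subunit, read -1.53 and -1.41 against -0.78 and -0.91, a difference of -0.63 (SE 0.08; limma adjusted p = 0.0954). Both are immediate early genes that growth factor signaling through MAP kinases also induces. The 8 CREB relatives and partners had a median of -0.19, and none was past 1.5-fold.

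**Figure D4:**
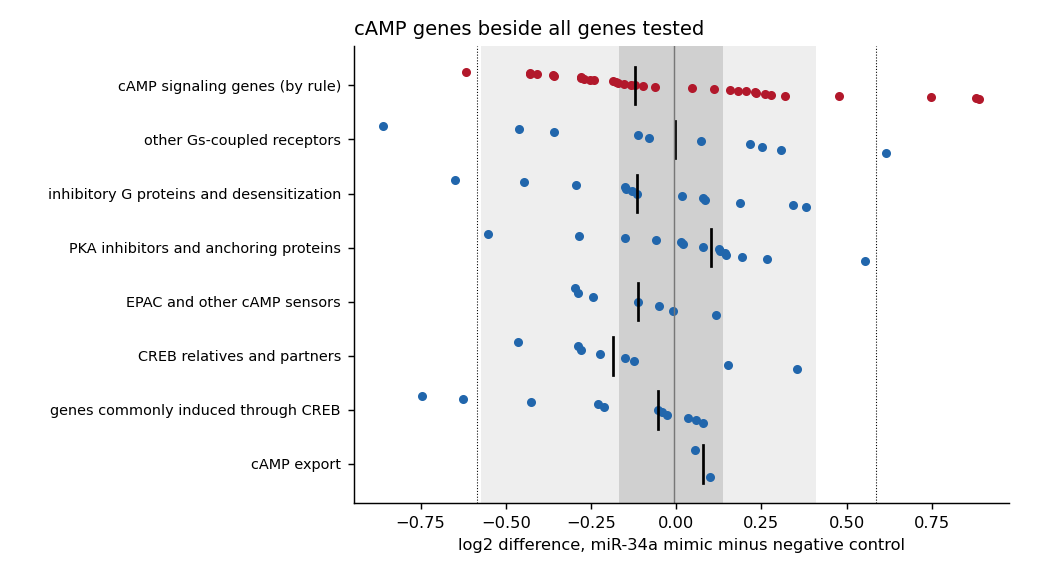
Log2 difference, miR-34a mimic minus negative control (horizontal axis), for the brightest tested probe of each gene, as points in 1 row per list, with black bars at the list medians and dotted lines at 1.5-fold. The dark band runs from the 25th to the 75th percentile of all tested genes (-0.17 to 0.14), and the light band from the 5th to the 95th (-0.57 to 0.41). List medians lie between -0.19 and 0.10, and PTGER4, CRHR1, GNAZ, EGR1 and JUNB are the points of the 7 further lists beyond the dotted lines.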

How the data were processed

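RNA of 4 samples (2 miR-34a mimic, 2 negative control) was labeled with Cy3 from 100 ng and hybridized to one-color Agilent arrays, all on 1 slide with 1 scan. The authors deposited the scanner output of Agilent Feature Extraction 10.7.3.1 per the file headers, in which each spot has an intensity with local background subtracted (the processed signal). A deposited table of all arrays holds the same intensity values, within 0.496%, and served as an alternative. Here spots flagged as outliers were left out, spots of a probe were averaged on the log2 scale, and each array was scaled to its 75th percentile. No spot was saturated (0). Tests used limma 3.58.1 in R 4.3.3 on all 4 arrays with Benjamini-Hochberg adjustment over all tested probes, and the script was tested on simulated data. The number of arrays limits the precision.

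The genes and lists were chosen with earlier results of these data known. All member genes are named, with array values for the receptors, for genes past 1.5-fold or with probes that disagree by more than 1.5-fold, and for the genes of the limma variance trend and the transcription factors. The last of these were chosen after their values were seen. From the further lists, 1 gene is not reported here and was left out of their counts. All 47 member symbols matched the RefSeq gene table. Alternatives were normexp (offset 50), quantile normalization, other scaling probes, other filters, the variance trend, a t-test on the same values, a block, another probe per gene and leaving out each array.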

Additional observations from a re-analysis of the deposited data

How the results depend on the processing

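With normexp background correction, the VIPR2 differences were 0.73 and 0.53, and with quantile normalization the 3′ probe gave 1.42. Leaving out 1 array gave 1.33 to 1.41 and 0.82 to 0.95. The 3 cAMP genes higher by over 1.5-fold became 0 with normexp and 2 to 3 leaving out 1 array. The 1 lower became 0 with normexp, 3 with no filter (ADCY10, PDE4C and PDE6C), 2 by the probe with the largest change (GNAS added) and 0 to 3 leaving out 1 array (0 without control replicate 1, 3 without mimic replicate 1). The median near VIPR2 was -0.15 with no filter and 0.011 (without mimic replicate 2) to 0.10 leaving out 1 array. Other cAMP genes (1 higher, 4 lower) gave 0 and 1 with normexp, 6 and 15 with no filter, and 1 to 2 (2 without mimic replicate 1 or control replicate 2) and 2 (without control replicate 2) to 6 leaving out 1 array. Over all probes, 453 were higher and 1030 lower by over 1.5-fold. These counts were 68 and 185 with normexp, 2069 and 6811 with no filter, 285 and 512 for probes detected on all 4 arrays, 702 higher with quantile normalization, and 527 to 567 and 990 to 1421 leaving out 1 array. At an adjusted p under 0.05, none passed (0), against 443 and 434 with normexp, 819 and 772 with the variance trend, 1 lower with the t-test, and 0 to 0 leaving out 1 array. Under normexp the limma adjusted p was 0.0328 for ADCY9, 0.0219 for the GNAS probe A_24_P168574 and 0.0465 for PDE4C. The cause was not tested. With the replicate block, VIPR2 stayed at 1.37 and 0.89 and 0 probes passed. The labels do not say whether replicate numbers pair samples. Over the tested probes, the replicate differences of the mimic and control groups correlated at -0.03. The median near VIPR2 turned sign with no filter, and none of the single-probe differences recomputed for VIPR2, ADCY1, ADCY9, GNAS, CREB1, CREM, PDE2A, PDE4C, PDE5A and PDE6H did. Signal over background limits ADCY1, PDE6H and ADCYAP1R1.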
